A study of Mus musculus with 35 samples.

Results

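The Cyp4a genes encode cytochrome P450 enzymes that hydroxylate fatty acids at the last carbon of the chain. The 6 listed members were taken by gene symbol from the count table of a mouse liver study, namely Cyp4a10, Cyp4a12a, Cyp4a12b, Cyp4a14, Cyp4a31 and Cyp4a32, which makes 6 genes of 55413. The study treated C57Bl6 mice with antisense oligonucleotides (ASOs) against Smyd3, a SET- and MYND-domain methyltransferase, or with a control ASO, after tumour induction with the liver carcinogen diethylnitrosamine (DEN). RNA from homogenized liver pieces was sequenced from the 3' end, in 35 libraries of 21 mice. Smyd3-ASO mice (n = 6) received 25 mg/kg DEN at day 14, then 50 mg/kg Smyd3-ASO 2 times a week from day 133, and were harvested at day 260. Control-ASO mice (n = 6) had the same DEN dose, schedule and harvest day with the control ASO. P133 mice (n = 4) had the same DEN dose, no ASO, and were harvested at day 133. Untreated mice (n = 5) had neither DEN nor ASO and were harvested at day 260. All groups share the strain and the chow, and the labels call the DEN samples tumours and hepatocellular carcinoma and the untreated samples normal liver. Neither the sex nor the time of day of harvest is given in the labels. Mice within a group are the replicates, and ASO-treated mice had 1 to 3 libraries each, which were summed.

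In these enzymes, electrons pass from P450 reductase to the P450, which adds a hydroxyl group to the omega carbon of a medium- or long-chain fatty acid. The product is oxidized by alcohol and aldehyde dehydrogenases to a dicarboxylic acid, which is shortened in peroxisomes. Cyp4a10 and Cyp4a14 are classical targets of the fatty acid receptor PPAR alpha in mouse liver and rise with fasting and fibrate drugs, while Cyp4a12a is the male-typical form, dependent on androgen and on the male pattern of growth hormone, and is known in mouse kidney for making 20-HETE from arachidonic acid.

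All 6 genes lie in one cluster on chromosome 4 (mm10, GENCODE vM21 annotation) and are protein-coding. In order along the chromosome these are Cyp4a12a (ENSMUSG00000066071, chr4:115299046-115332815, plus strand), Cyp4a12b (ENSMUSG00000078597, chr4:115411624-115439034, plus strand), Cyp4a14 (ENSMUSG00000028715, chr4:115486200-115496142, minus strand), Cyp4a10 (ENSMUSG00000066072, chr4:115518264-115533649, plus strand), Cyp4a31 (ENSMUSG00000028712, chr4:115563649-115579015, plus strand) and Cyp4a32 (ENSMUSG00000063929, chr4:115600969-115621602, plus strand). Coding sequences of Cyp4a12a and Cyp4a12b were 98.5% identical, with 23 differing positions. Cyp4a10 was 96.6% identical to Cyp4a31 and 97.2% to Cyp4a32. Cyp4a14 stood apart, at 75.6% identity to Cyp4a10 and 75.7% to Cyp4a12a. The last 60 coding bases before the stop codon, each in the gene's last coding exon, are printed to show how alike the copies are at the protein's end. In every member but Cyp4a32 they lie before the last 500 bases of the transcript. Capitals mark letters that differ from Cyp4a12a (in Cyp4a12b, where there are 0) or from Cyp4a10 (in Cyp4a31, Cyp4a32 and Cyp4a14).
Cyp4a12a, chr4:115331940-115331999, plus strand: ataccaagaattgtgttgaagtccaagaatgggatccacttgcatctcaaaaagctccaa
Cyp4a12b, chr4:115438163-115438222, plus strand: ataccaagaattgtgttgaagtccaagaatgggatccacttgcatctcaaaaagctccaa
Cyp4a10, chr4:115532637-115532696, plus strand: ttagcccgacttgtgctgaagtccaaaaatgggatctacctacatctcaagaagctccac
Cyp4a31, chr4:115578042-115578101, plus strand: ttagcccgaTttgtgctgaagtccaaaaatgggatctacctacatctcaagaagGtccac
Cyp4a32, chr4:115621540-115621599, plus strand: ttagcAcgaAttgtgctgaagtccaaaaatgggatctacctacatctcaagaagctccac
Cyp4a14, chr4:115487146-115487205, minus strand: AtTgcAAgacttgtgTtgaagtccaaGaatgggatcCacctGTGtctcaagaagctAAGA

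Cyp4a12a and Cyp4a12b did not differ over these bases, Cyp4a31 and Cyp4a32 each differed from Cyp4a10 at 2, and Cyp4a14 differed at 14. Over the last 500 bases of the annotated transcripts, where 3' reads are expected to fall, 167 of 451 windows of 50 bases (37.0%) were shared word for word between Cyp4a12a and Cyp4a12b. Cyp4a10 and Cyp4a31 shared 27 of 451 (5.99%), Cyp4a14 shared 0, and no member shared a window with a gene outside the 6. The annotated Cyp4a32 transcript ends at its stop codon, and 301 of its 451 windows (66.7%) were also in Cyp4a10 or Cyp4a31. How reads that match several copies were counted is not given in the sources used here. The split between Cyp4a12a and Cyp4a12b, and the low counts of Cyp4a31 and Cyp4a32, are therefore uncertain, by an amount that the shares of windows do not give. Cyp4a14, which shared 0 windows, is not touched by such reads. For Cyp4a32, 3' reads past the stop codon could also go uncounted under this annotation. The other Cyp4a genes of the cluster were hardly detected, with 0 counts for Cyp4a29 and 12 counts for Cyp4a30b over all 21 mice.

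Total counts per mouse were 6358080 to 20258619 in Smyd3-ASO mice, 6789715 to 13805881 in control-ASO mice, 4556484 to 6447397 in P133 mice and 10186780 to 13116012 in untreated mice. Smyd3 itself averaged 0.325 ± 0.289 CPM (CPM stands for counts scaled to a common library size) in Smyd3-ASO livers and 3.87 ± 0.598 CPM in control-ASO livers (SD, n = 6 each), a log2 fold change of -3.65. Xist, the transcript of the inactive X chromosome, was at 0 in all 21 mice, and the Y-linked Ddx3y lay between 28.1 and 58.6 CPM in the 4 groups. Summed over 9 hepatocyte markers, the level was 27794 to 57606 CPM in Smyd3-ASO mice, 69857 to 113540 CPM in control-ASO mice, 54174 to 58620 CPM in P133 mice and 86174 to 155240 CPM in untreated mice. In bulk liver, fewer cells of a type and less RNA per cell cannot be told apart.

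All 6 members passed the filter on low counts, which left 15297 genes. Cyp4a31 and Cyp4a32 were near the floor, with 1 to 92 and 10 to 129 counts per mouse, while Cyp4a14 ranged from 17 to 6285 counts. Cyp4a levels are given in CPM, scaled with edgeR's TMM factors. Changes are log2 fold changes from edgeR's quasi-likelihood test with Benjamini-Hochberg adjustment over all 15297 genes, called at an adjusted p below 0.05.

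**Figure D1:**
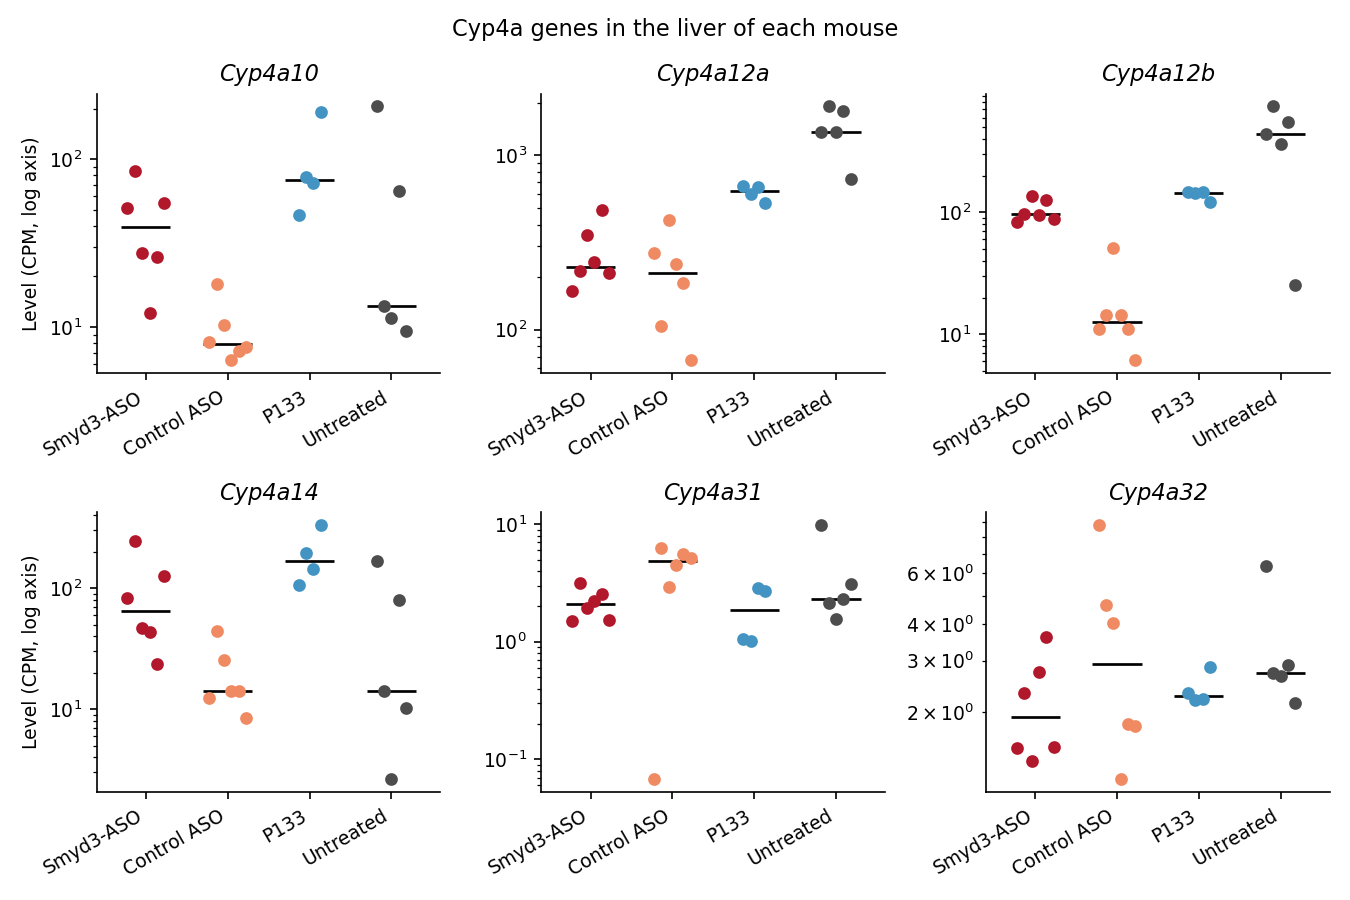
Level of each Cyp4a gene in CPM (log axis) in the liver of every mouse, by group, with a line at the group median. In Cyp4a12b the 6 Smyd3-ASO mice, at 82.7 CPM and above, all sit above the 6 control-ASO mice, whose highest value was 51.0 CPM.

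Cyp4a10, the PPAR alpha-inducible omega-hydroxylase, was higher in Smyd3-ASO tumours than in control-ASO tumours. Its lowest, median and highest levels were 12.1, 39.4 and 84.6 CPM in Smyd3-ASO mice, against 6.31, 7.90 and 17.9 CPM in control-ASO mice. The 4 P133 mice had 46.3, 78.0, 72.1 and 191 CPM. The 5 untreated mice had 206.5, 13.3, 11.2, 64.7 and 9.50 CPM. Smyd3-ASO and control-ASO mice overlapped only where the lowest Smyd3-ASO mouse fell below the highest control-ASO mouse, and the untreated mice spanned more than the range of the Smyd3-ASO group. Group means were 42.7 ± 26.1 CPM in Smyd3-ASO, 9.59 ± 4.29 CPM in control-ASO, 97.0 ± 64.5 CPM in P133 and 61.0 ± 84.5 CPM in untreated mice (SD). From the lowest mean up, the order was control ASO, Smyd3-ASO, untreated and P133, and of these neighbours only Smyd3-ASO and control ASO differed in the test.

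Cyp4a14, the other inducible form, had lowest, median and highest levels of 23.7, 64.6 and 244 CPM in Smyd3-ASO mice, against 8.52, 14.2 and 44.2 CPM in control-ASO mice. P133 livers held 107, 195, 143 and 334 CPM, and untreated livers 166, 14.0, 2.65, 80.0 and 10.2 CPM. As for Cyp4a10, untreated mice 1 and 4 were the high ones and the other 3 were low, and every P133 mouse was above every control-ASO mouse. Means were 94.3 ± 81.8 CPM in Smyd3-ASO, 19.8 ± 13.2 CPM in control-ASO, 195 ± 99.7 CPM in P133 and 54.6 ± 69.6 CPM in untreated mice. From the lowest mean up the order was control ASO, untreated, Smyd3-ASO and P133, and no 2 neighbours in it differed in the test.

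Cyp4a12a, the male-typical hydroxylase, was highest in untreated liver. It reached 166, 229.5 and 483 CPM (lowest, median and highest) in Smyd3-ASO mice, against 66.5, 212 and 422 CPM in control-ASO mice. The P133 mice had 662, 598, 655 and 533 CPM, against 1368, 1910.1, 1362, 1789.6 and 729.7 CPM in the untreated mice. Both ASO groups lay wholly below the P133 mice, and those wholly below the untreated mice, while the ASO groups overlapped each other across most of their range. Means were 278 ± 118 CPM in Smyd3-ASO, 215 ± 128 CPM in control-ASO, 612 ± 59.98 CPM in P133 and 1432 ± 463 CPM in untreated mice. In the order control ASO, Smyd3-ASO, P133, untreated only the first pair of neighbours did not differ in the test.

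Cyp4a12b, the near-identical neighbour of Cyp4a12a, changed between the ASO groups where Cyp4a12a did not pass the test. It had 82.7, 96.7 and 135 CPM (lowest, median and highest) in Smyd3-ASO mice, against 6.09, 12.7 and 51.0 CPM in control-ASO mice. The P133 mice had 146, 144, 148 and 121 CPM, against 442, 744, 361, 556 and 25.1 CPM in the untreated mice. Relative to their means the Smyd3-ASO and P133 groups were the tightest (coefficients of variation 20.5% and 9.07%, against 91.6% in control-ASO and 62.5% in untreated mice), and untreated mouse 5, at 25.1 CPM, lay below every Smyd3-ASO and P133 mouse. Means were 104 ± 21.4 CPM in Smyd3-ASO, 18.0 ± 16.5 CPM in control-ASO, 139.6 ± 12.7 CPM in P133 and 426 ± 266 CPM in untreated mice. From the lowest mean up the order was control ASO, Smyd3-ASO, P133 and untreated, and only the first pair of neighbours differed in the test.

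Cyp4a31 and Cyp4a32, close copies of Cyp4a10 whose own substrates are less well described, stayed at a few CPM everywhere. Cyp4a31 had 1.5045, 2.08 and 3.15 CPM (lowest, median and highest) in Smyd3-ASO mice, against 0.0682, 4.83 and 6.30 CPM in control-ASO mice, the lowest being control-ASO mouse 1 with 1 count. It had 1.05, 1.02, 2.88 and 2.69 CPM in P133 mice, against 9.88, 2.13, 1.56, 2.32 and 3.08 CPM in untreated mice. Cyp4a32 had 1.35, 1.92 and 3.62 CPM in Smyd3-ASO mice, against 1.18, 2.93 and 8.79 CPM in control-ASO mice. Their groups overlapped in every comparison. In P133 mice Cyp4a32 had 2.32, 2.21, 2.22 and 2.84 CPM, against 6.34, 2.73, 2.65, 2.90 and 2.14 CPM in untreated mice. Neither gene passed the test in any of the 6 comparisons, which at such low counts does not show that the groups are alike. Without control-ASO mouse 1, Cyp4a31 was called in Smyd3-ASO over control ASO and in control ASO over P133. Untreated mouse 1 was the highest of its group for Cyp4a31 and Cyp4a32, as for Cyp4a10 and Cyp4a14.

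**Figure D2:**
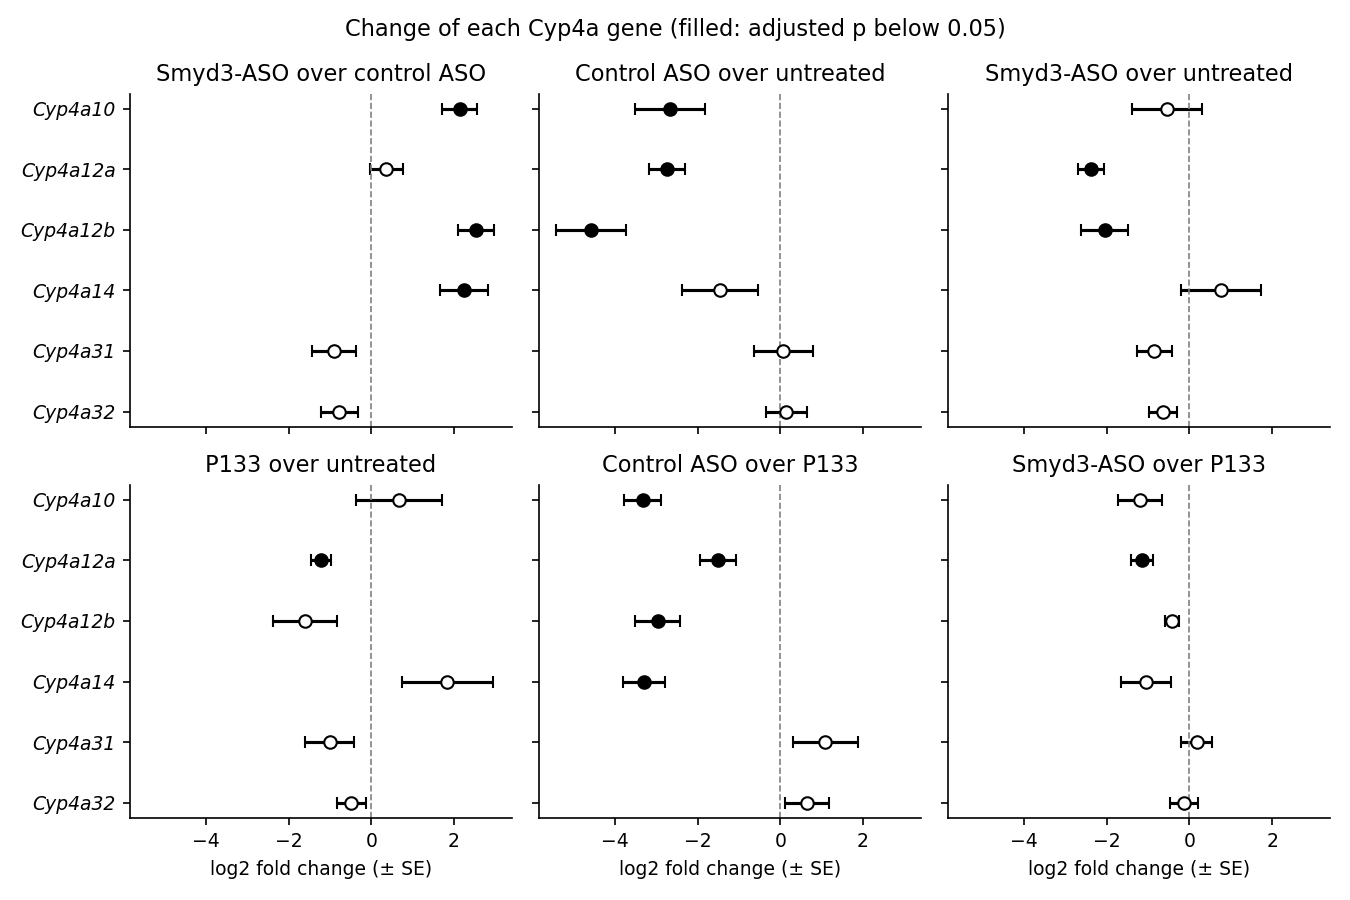
Log2 fold change (± SE) of each Cyp4a gene in the 6 pairwise comparisons. Filled points passed an adjusted p of 0.05, and the dashed line marks no change. Cyp4a10, Cyp4a12b and Cyp4a14 were called higher in Smyd3-ASO over control ASO, and those 3 and Cyp4a12a were called lower in control ASO over P133.

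The comparison of Smyd3-ASO with control ASO asks what the Smyd3 oligonucleotide changed in DEN tumours. In it 3 members rose, 0 fell and 3 did not pass, where 26.1% of all tested genes were called in either direction, 13.3% higher and 12.9% lower. Cyp4a12b rose 5.82-fold (log2 2.54, SE 0.44, adjusted p = 0.00142). Cyp4a14 rose 4.73-fold (log2 2.24, SE 0.58, adjusted p = 0.0154) and Cyp4a10 4.41-fold (log2 2.14, SE 0.43, adjusted p = 0.00342). Only Cyp4a12b had groups that did not overlap, which held for 11.1% of all tested genes. Cyp4a12a had a log2 difference of 0.37 (SE 0.40, adjusted p = 0.518), Cyp4a31 of -0.91 (SE 0.53, adjusted p = 0.220) and Cyp4a32 of -0.77 (SE 0.44, adjusted p = 0.209). The median over the 6 members was 1.25, against 0.01 over all tested genes. The 3 calls held under all 21 alternatives each, which include leaving out every mouse in turn. Without control-ASO mouse 1, the one with 1 count, Cyp4a31 was called lower (log2 -1.18, adjusted p = 0.00496).

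Some markers of other cells differed between the same groups, and clock genes varied within and between them. Over 6 adipocyte markers the summed level was 8.62 to 154 CPM (median 46.9) in Smyd3-ASO mice, against 2.47 to 9.20 CPM (median 4.19) in control-ASO mice. One of them, Cfd, was at 1.25 to 102.5 CPM against 0 to 3.27 CPM, while the fat cell hormone Adipoq was at 0 to 2.13 CPM against 0 to 1.77 CPM and Lep was at 0 in every Smyd3-ASO mouse. The core clock gene Arntl had 1.89, 6.31 and 12.3 CPM (lowest, median and highest) in Smyd3-ASO mice, against 1.40, 2.69 and 9.83 CPM in control-ASO mice, of which mice 1 and 2 were the high ones. The clock gene Dbp had 5.31, 16.5 and 33.4 CPM in Smyd3-ASO mice, against 9.48, 94.0 and 106.9 CPM in control-ASO mice. For the clock gene Nr1d1 these were 4.22, 12.2 and 14.3 CPM, against 7.99, 24.3 and 35.4 CPM. Arntl, Dbp and Nr1d1 did not pass the test between the ASO groups. Without control-ASO mice 1 and 2 the rises were 2.44, 2.35 and 2.60 (log2) for Cyp4a10, Cyp4a12b and Cyp4a14, with adjusted p = 0.00634, 0.0113 and 0.0209. Those mice had 9.48 and 11.6 CPM of Dbp, within the range of the Smyd3-ASO mice. The control-ASO mice left had 93.6 CPM or more, against at most 33.4 CPM in Smyd3-ASO mice. Leaving out mice 1 and 2 thus sets the groups further apart in Dbp, and cannot tell the clock from the ASO. Over 5 erythroid markers the summed level was 622.5 to 1612 CPM in Smyd3-ASO mice, against 2029 to 5511 CPM in control-ASO mice, without overlap, and 1 rose and 3 fell in the test. The part of the adipocyte and erythroid markers and of the clock in these results was not tested.

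Set against untreated liver, control-ASO tumours had less of 3 members: 0 rose, 3 fell and 3 did not pass, where 45.9% of all tested genes were called, 23.7% higher and 22.2% lower. Cyp4a12b fell by 4.58 on the log2 scale (SE 0.84, adjusted p = 0.00164). Cyp4a12a fell by 2.74 (SE 0.43, adjusted p = 3.345e-04) and was the only member without overlap, which held for 27.6% of tested genes. Cyp4a10 fell by 2.67 (SE 0.86, adjusted p = 0.0290). That call rests on untreated mouse 1, without which the difference was -1.36 (adjusted p = 0.0895), and it was lost in 12 of 20 alternatives. It was also lost without any one of control-ASO mice 1, 3, 4, 5 and 6 (log2 -2.69 to -2.58, adjusted p = 0.0506 to 0.0586). Cyp4a14 had a difference of -1.46 (SE 0.93, adjusted p = 0.228), Cyp4a31 of 0.07 (adjusted p = 0.945) and Cyp4a32 of 0.15 (adjusted p = 0.828). The median over the members was -2.07, against 0.06 over all tested genes. Over 6 bile duct markers the summed level was 55.3 to 127 CPM in control-ASO mice, against 14.9 to 30.5 CPM in untreated mice, and over 5 erythroid markers it was 2029 to 5511 CPM against 3564 to 8476 CPM. Of the tested bile duct markers 3 of 4 rose, while 3 of 5 erythroid and 4 of 9 hepatocyte ones fell. Arntl was at 1.40 to 9.83 CPM in control-ASO mice, against 0.145 to 1.60 CPM in untreated mice. The part of these markers and of the clock in the result was not tested. DEN and the ASO differ together between these groups and cannot be told apart.

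Smyd3-ASO tumours against untreated liver had 0 members higher, 2 lower and 4 not passed, where 47.6% of all tested genes were called, 24.4% higher and 23.2% lower. Cyp4a12a fell by 2.38 (SE 0.31, adjusted p = 4.374e-05), again without overlap, as in 28.4% of tested genes. Cyp4a12b fell by 2.05 (SE 0.57, adjusted p = 0.0115), a call that was lost in 4 of 19 alternatives, namely library totals (log2 -1.20, adjusted p = 0.0734), limma voom (-1.46, 0.0914), the deposited score (-1.43, 0.142) and the replicate block (-1.69, 0.179). The inducible forms did not pass, with -0.55 (SE 0.84, adjusted p = 0.617) for Cyp4a10 and 0.75 (SE 0.97, adjusted p = 0.547) for Cyp4a14. Without untreated mouse 1 the Cyp4a10 difference turned to 0.76. Cyp4a31 had -0.85 (adjusted p = 0.115) and Cyp4a32 -0.64 (adjusted p = 0.139). Here too DEN and the ASO differ together and cannot be told apart. Arntl was at 1.89 to 12.3 CPM in Smyd3-ASO mice, against 0.145 to 1.60 CPM in untreated mice. Of the tested hepatocyte markers 7 of 9 fell and of the erythroid ones 5 of 5, while 2 of 4 bile duct markers rose. The part of the clock and of these markers in the result was not tested.

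The P133 livers, taken before any ASO, show the members at an earlier stage after DEN, though age and DEN cannot be told apart against the older untreated mice. There 0 members rose, 1 fell and 5 did not pass, where 31.6% of all tested genes were called, 15.1% higher and 16.6% lower. Cyp4a12a fell by 1.22 (SE 0.24, adjusted p = 0.00114), without overlap, as in 27.1% of tested genes. Cyp4a12b had a difference of -1.61 (SE 0.77, adjusted p = 0.161), which became a call without untreated mouse 5 (log2 -1.91, adjusted p = 7.689e-06). Cyp4a10 had 0.67 (SE 1.05, adjusted p = 0.667) and Cyp4a14 1.84 (SE 1.10, adjusted p = 0.251). Without untreated mouse 1 they were 1.98 and 2.87, neither of which passed, and without P133 mouse 4 they were 0.11 (adjusted p = 0.956) and 1.45 (adjusted p = 0.433). With limma voom Cyp4a14 was called higher (log2 2.95, adjusted p = 0.0281). Cyp4a31 had -1.01 (adjusted p = 0.221) and Cyp4a32 -0.49 (adjusted p = 0.308). Arntl was at 23.4, 14.6, 9.32 and 8.22 CPM in P133 mice, against 0.537, 0.237, 0.468, 0.145 and 1.60 CPM in untreated mice, so the phase of the clock and the group cannot be told apart here. The 6 adipocyte markers summed to 10.2 to 68.3 CPM in P133 mice, against 2.03 to 3.90 CPM in untreated mice, with 4 of 5 tested called higher. Of the tested hepatocyte markers 6 of 9 fell (median log2 -1.09) and of the erythroid ones 4 of 5, while 3 of 6 macrophage markers rose. The part of all these markers in the result was not tested.

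Control-ASO tumours and P133 livers differ in age, time since DEN and the ASO at once. Here 0 members rose, 4 fell and 2 did not pass, where 27.0% of all tested genes were called, 14.4% higher and 12.6% lower. Cyp4a10 fell by 3.33 (SE 0.44, adjusted p = 7.251e-04) on the log2 scale. Cyp4a14 fell by 3.29 (SE 0.51, adjusted p = 0.00190) and Cyp4a12b fell by 2.97 (SE 0.54, adjusted p = 0.00409). Cyp4a12a fell by 1.51 (SE 0.44, adjusted p = 0.0303), a call that was lost without control-ASO mouse 5 (log2 -1.47, adjusted p = 0.0600) or without any one P133 mouse (log2 -1.56 to -1.46, adjusted p = 0.0538 to 0.0636). All 4 had groups without overlap, which held for 21.3% of tested genes. Without control-ASO mice 1 and 2, whose Arntl was nearest to P133, Cyp4a10, Cyp4a14 and Cyp4a12b fell by 3.63, 3.65 and 2.77, and Cyp4a12a had -1.42 (adjusted p = 0.0773). The control-ASO mice left had at most 3.02 CPM of Arntl, against 8.22 CPM or more in P133 mice. The part of the clock was not tested. Cyp4a31 had 1.09 (adjusted p = 0.335), called higher without control-ASO mouse 1 (log2 1.36, adjusted p = 0.0101), and Cyp4a32 0.64 (adjusted p = 0.400).

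Smyd3-ASO tumours relative to P133 livers had 0 members higher, 1 lower and 5 not passed, where 24.8% of all tested genes were called, 13.1% higher and 11.7% lower. Cyp4a12a fell by 1.14 (SE 0.26, adjusted p = 0.00823), without overlap, as in 19.3% of tested genes. Cyp4a10 had -1.20 (SE 0.52, adjusted p = 0.121), Cyp4a14 -1.06 (SE 0.60, adjusted p = 0.225) and Cyp4a12b -0.43 (SE 0.16, adjusted p = 0.0728). With the DESeq2 test Cyp4a10 was called lower (log2 -1.19, adjusted p = 0.0481). Without P133 mouse 4 its difference was -0.63 (adjusted p = 0.398) and that of Cyp4a14 was -0.67 (adjusted p = 0.494). Without Smyd3-ASO mouse 2, Cyp4a14 was called lower (log2 -1.60, adjusted p = 0.0455), as was Cyp4a12b without Smyd3-ASO mouse 3 (log2 -0.52, adjusted p = 0.0332) or mouse 5 (log2 -0.50, adjusted p = 0.0464). Cyp4a31 had 0.18 (adjusted p = 0.756) and Cyp4a32 -0.14 (adjusted p = 0.797). As for control ASO, age, time since DEN and the ASO differ from P133 at once. Of the tested markers 4 of 9 hepatocyte and 3 of 5 erythroid ones fell, and of 6 endothelial ones 4 fell and 1 rose. The range of Arntl was 1.89 to 12.3 CPM in Smyd3-ASO mice, against 8.22 to 23.4 CPM in P133 mice. The part of the clock and of these markers was not tested. These comparisons share their groups with those above, so the values of the members are given side by side and are not independent of each other.

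Members did not move by the same amount, and this was tested on the log2 ratio of each pair of members per mouse, with 0.5 CPM added, by a two-sided exact permutation test. Over 15 pairs and 6 comparisons this gave 90 tests, of which 30 passed after Benjamini-Hochberg adjustment. That count was lower without some single mice: it was 0 without any one of control-ASO mice 2 to 6, and 8 without any one of P133 mice 1 to 3. It was 12 without any one of Smyd3-ASO mice 1, 3 and 6, 15 without Smyd3-ASO mouse 2, and 19 without untreated mouse 2 or 3. Fewer mice also raise the smallest exact permutation p in some comparisons, from 0.00476 for 6 against 4 mice to 0.00794 for 5 against 4. The mouse left out and the coarser test thus cannot be told apart. With 0.1 CPM added the count was 13. With the replicate block it was 0, but sign flips over at most 6 pairs of mice allow no adjusted p below 0.05, so that 0 was fixed beforehand. In Smyd3-ASO against control ASO, 7 of 15 pairs passed, namely Cyp4a12a with Cyp4a12b, and each of Cyp4a10, Cyp4a12b and Cyp4a14 with Cyp4a31 and with Cyp4a32. All but the first of these pairs rest on a gene near the floor. In control-ASO mouse 1 Cyp4a31 was at 0.0682 CPM, below the 0.5 CPM added. The log2 ratio of Cyp4a12a to Cyp4a12b averaged 1.34 ± 0.319 in Smyd3-ASO mice and 3.63 ± 0.671 in control-ASO mice (SD, n = 6 each). The difference of -2.29 had an exact permutation p = 0.00216, the smallest that the 924 splits of the mice can give, and an adjusted p = 0.0306. The groups did not overlap and the difference stayed between -2.45 and -2.11 with any mouse left out. Its adjusted p was above 0.05 (0.0510 to 0.0595) without any one of control-ASO mice 2 to 6.

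As a share of the counts given to both genes, Cyp4a12b made up 20.7 to 33.2% in Smyd3-ASO mice (28.4 ± 4.25%, n = 6), against 3.89 to 12.1% in control-ASO mice (7.73 ± 3.23%, n = 6). P133 mice held 18.1, 19.4, 18.4 and 18.5%, against 24.4, 28.0, 20.9, 23.7 and 3.33% in untreated mice. Untreated mice 1 to 4 thus lay above the P133 mice and untreated mouse 5 lay below every control-ASO mouse. The ratio also passed in control ASO against P133 (difference 1.51, adjusted p = 0.0429) and in Smyd3-ASO against P133 (difference -0.79, adjusted p = 0.0306). It did not pass in control ASO against untreated (difference 1.35, adjusted p = 0.135), and did so without untreated mouse 5 (difference 1.99, adjusted p = 0.0286). That mouse also stood apart in Slc34a1, a kidney phosphate transporter gene, at 54.4 CPM against at most 2.60 CPM in the other 20 mice, while the kidney markers Slc22a6, Slc12a1, Umod and Kap were at 0 in every untreated mouse, and in the clock gene Dbp, at 12.97 CPM against 92.1 to 119 CPM in the other untreated mice. The part of these in the low Cyp4a12b of that mouse was not tested.

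**Figure D3:**
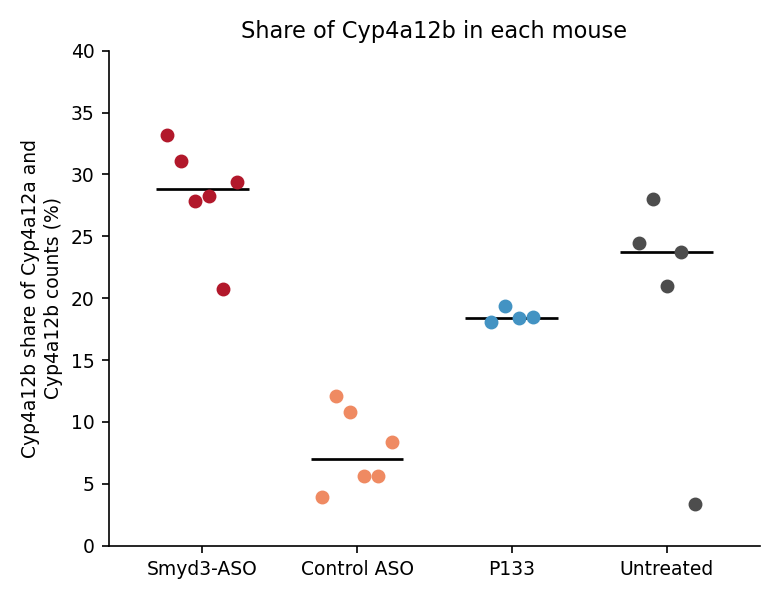
Share of Cyp4a12b in the counts of Cyp4a12a and Cyp4a12b together (%) in each mouse, by group, with a line at the median. The 6 Smyd3-ASO mice (20.7 to 33.2%) lie above the 6 control-ASO mice (3.89 to 12.1%), and the low untreated point is mouse 5 (3.33%).

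Cyp4a10 and Cyp4a14 were alike in pattern over the 21 mice, though no correlation within an ASO group passed after adjustment. Over the 21 mice the Pearson r of their log2 levels was 0.90, and it was 0.90 for deviations from group means. Across groups this r also holds differences in depth and group, and it is given as a description. Within the Smyd3-ASO mice the r was 0.82 (exact permutation p = 0.0458, Spearman's rho 0.94, p = 0.0167, n = 6), and 0.93 without the 2 mice farthest from the median. In control-ASO mice the r was 0.88 (exact permutation p = 0.0250, rho 0.49, p = 0.356, n = 6), and -0.47 without the 2 farthest mice, so there it rests on those mice. Of 30 such correlations, 0 passed after Benjamini-Hochberg adjustment by either measure, and 3 each had an unadjusted Pearson or Spearman p below 0.05. Cyp4a12a and Cyp4a12b share 37.0% of the windows at their 3' ends, and the part of shared reads in their r was not tested. Their r was 0.92 in Smyd3-ASO mice (exact permutation p = 0.0167, rho 0.89, p = 0.0333, n = 6, and 0.86 without the 2 farthest mice). In control-ASO mice their r was 0.76 (exact permutation p = 0.0750, rho 0.60, p = 0.242, n = 6, and -0.48 without the 2 farthest mice). Adjusted values for this pair were 0.375 (Pearson) and 0.333 (Spearman) in Smyd3-ASO mice and 0.450 and 0.659 in control-ASO mice. For those of Cyp4a10 with Cyp4a14 the adjusted values were 0.450 (Pearson) and 0.333 (Spearman) in Smyd3-ASO mice. The ratio of Cyp4a10 to Cyp4a14 differed by -0.08 between Smyd3-ASO and control ASO (adjusted p = 0.884). In untreated mice the ratio was higher than in every other group: the log2 ratio averaged -0.97 ± 0.691 in Smyd3-ASO, -0.88 ± 0.443 in control-ASO, -1.07 ± 0.229 in P133 and 0.35 ± 0.893 in untreated mice, with adjusted p = 0.0476, 0.0365 and 0.0476 for the 3 groups against untreated. Without untreated mouse 3, whose Cyp4a14 was 2.65 CPM, the difference of control ASO from untreated was -0.85 (adjusted p = 0.0686).

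**Figure D4:**
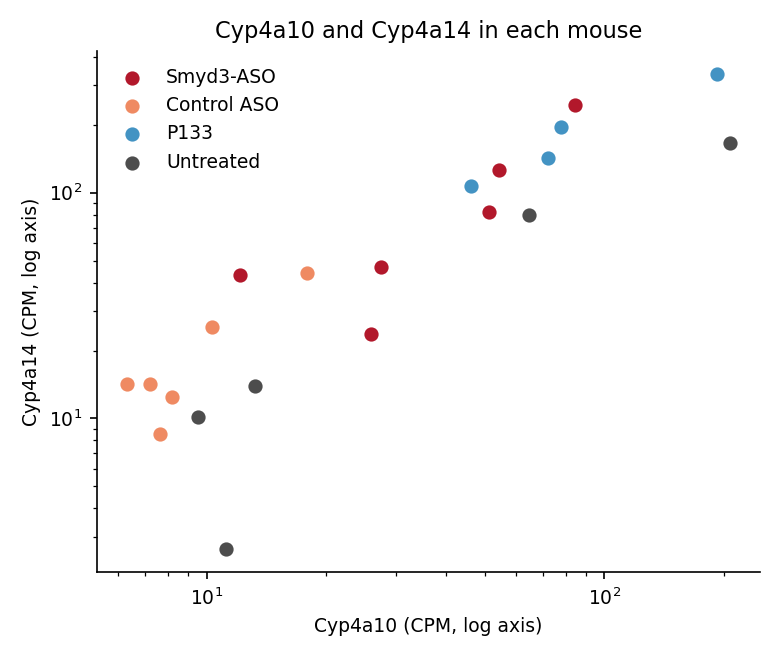
Cyp4a14 against Cyp4a10 in each mouse, in CPM on log axes, coloured by group. The control-ASO mice sit at the low end of both axes, at up to 17.9 CPM of Cyp4a10 and 44.2 CPM of Cyp4a14, while the untreated mice spread from 9.50 to 206.5 CPM of Cyp4a10.

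Of 9111 other named genes, all averaging 2 or more in log2 CPM, those most like Cyp4a12a over the 21 mice were the mitochondrial thiolase Acaa2 (r = 0.96), the respiratory chain subunit Cox6a1 (r = 0.96) and the male-biased organic anion transporter Slco1a1 (r = 0.95). Closest to Cyp4a12b were the drug-metabolizing P450 Cyp3a11 (r = 0.92), Rtn4ip1 (r = 0.92) and the epoxide hydrolase Ephx2 (r = 0.92). Cyp4a10 was nearest to Acss3, Ugt1a8 and Ugt1a5 (r = 0.81 to 0.82), where Ugt1a8 and Ugt1a5 are transcripts of one locus, and Cyp4a14 to Use1 (0.84), Txndc9 (0.82) and Kdsr (0.82), in both cases below their r of 0.90 with each other. Cyp4a31 and Cyp4a32 had no gene above 0.69 and 0.64. For deviations from group means, the nearest genes of Cyp4a12a were the carboxylesterase Ces1f (0.93), the transporter Slco1a4 (0.91) and Pm20d1 (0.88), and those of Cyp4a12b were Gchfr (0.84), Cyp4v3 (0.83), a fatty acid hydroxylase of the same P450 family, and the fatty acid binding protein Fabp1 (0.81). The nearest to Cyp4a10 were then Lrrc40 (0.83), Dclre1a (0.82) and Ly6a (0.78). These are descriptions over mice that share group and depth.

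The partners of omega-oxidation were followed through lists chosen with earlier results of these data known. In Smyd3-ASO over control ASO their counts stand beside 13.3% of all tested genes called higher and 12.9% called lower, and a share near these says nothing about a list. Of 20 tested genes of peroxisomal beta-oxidation, 7 rose and 0 fell in Smyd3-ASO over control ASO (median log2 0.30, against 0.01 over all tested genes). Pex11a, which drives peroxisome division, had 246.5 ± 83.7 CPM in Smyd3-ASO and 101 ± 21.8 CPM in control-ASO mice (log2 1.28, adjusted p = 0.00119), and Acox3 had 22.6 ± 1.93 CPM against 12.9 ± 2.03 CPM (log2 0.80, adjusted p = 5.397e-04). Of 21 mitochondrial PPAR alpha targets 5 rose and 0 fell (median 0.37), among them the acyl-CoA thioesterase Acot1 (log2 1.45) and the carnitine carrier Slc25a20 (0.77).

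Other PPAR alpha targets split, with 8 of 26 higher and 5 lower (median 0.39). The lipid droplet protein Plin5 rose by 1.22 and the lipase inhibitor Angptl4 by 1.25 on the log2 scale, while the pantetheinase-family gene Vnn3 fell by 1.31. Of 19 regulators of the pathway 1 rose and 2 fell (median -0.15): the receptor gene Ppara was at 13.3 ± 5.40 CPM in Smyd3-ASO and 22.9 ± 8.63 CPM in control-ASO mice (log2 -0.79, adjusted p = 0.0454), and the xenobiotic receptor gene Nr1i2 rose by 0.56 (adjusted p = 0.0490). Among 16 partners of the omega-hydroxylases 5 rose and 3 fell (median 0.44). The acyl-CoA synthetase Acsm1 rose by 0.94, the alcohol dehydrogenase Adh1 fell by 0.87, and the peroxisomal fatty acid transporter Abcd2, which is also on the list of female-biased genes, fell by 3.17. Of 8 tested Cyp4 genes outside the 6 members, Cyp4f17 rose (log2 0.72), Cyp4f16 fell (log2 -1.19) and 6 did not pass (median 0.23), shares close to those over all tested genes.

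Lists tied to the male-typical expression of Cyp4a12a gave other counts. In Smyd3-ASO over control ASO 4 of 31 male-biased liver genes rose and 0 fell (median 0.29), a share called higher close to that of all tested genes, with Ugt2b38, Fitm1 and Ugt2b1 up by 3.11, 2.43 and 1.02 on the log2 scale, while 3 of 29 female-biased genes rose and 21 fell (median -2.35), led by Cyp2b9 (log2 -4.15), Abcd2 (-3.17) and Cyp3a41b (-4.76). The filter on low counts was set over all groups together. Female-biased Sult2a5 was at 0 CPM in every P133 and untreated mouse, and so passed through an ASO group. A gene that passed through the group where it was high can only come out lower elsewhere, so the female-biased counts are a description. Of 18 regulators of growth hormone and sex hormone action, 4 rose and 1 fell, among them Onecut2 (log2 1.54), Srd5a1 (1.31) and Stat5a (0.59). By zone of the liver lobule, 8 of 24 pericentral genes rose and 0 fell (median 0.95), with Cyp27a1 (1.93), Oat (1.62) and Cyp2e1 (1.22) first, while 1 of 20 periportal genes rose and 5 fell (median 0.04), with Hsd17b6 (-1.02), Aldh1b1 (-1.06) and Sardh (0.70) first. Of 21 clock genes 3 fell and 0 rose (median -0.31), namely Hlf (-0.72), Per2 (-1.04) and Per3 (-2.11), again a share close to that of all tested genes.

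In control ASO over untreated, where 23.7% of all tested genes were called higher and 22.2% lower, 9 of 20 peroxisomal genes fell and 1 rose (median -0.57, against 0.06 over all tested genes), as did 10 of 21 mitochondrial targets, with 1 rising (median -0.55), and 10 of 16 omega-oxidation partners, with 1 rising (median -0.76). Of 26 other PPAR alpha targets 8 rose and 7 fell (median 0.15), with Cd36 (log2 1.88), Fitm2 (-1.03) and Cidea (5.04) first. Cidea averaged 0.0786 CPM in untreated mice, so its log2 value is set against a level near the floor. Examples from the lists that fell more often are Decr2 of unsaturated fatty acid oxidation (log2 -2.11), Acsm1 (-3.36) and Acaa2 (-1.36). Male-biased genes fell in 21 of 31 cases and rose in 0 (median -2.04), with Hsd17b2 (-2.14), C8b (-2.04) and Hsd3b2 (-2.27) first, while 13 of 29 female-biased genes rose and 2 fell (median 2.21). Pericentral genes fell in 16 of 24 cases and rose in 0 (median -1.21). Of the other Cyp4 genes 4 of 8 fell and 2 rose (median -0.72), Cyp4f14, Cyp4f13 and Cyp4v3 falling by 1.76, 1.17 and 1.66. In control ASO over P133, where 14.4% of all tested genes were called higher and 12.6% lower, 9 of 20 peroxisomal genes fell and 0 rose (median -0.63, against 0.03), among them Pex11a (log2 -2.12), and 7 of 21 mitochondrial targets fell and 0 rose (median -0.35), among them Acot1 (log2 -2.39). Of 26 other PPAR alpha targets 3 rose and 12 fell (median -0.43). There 14 of 31 male-biased genes fell and 0 rose (median -1.20), and 19 of 29 female-biased genes rose and 2 fell (median 3.38). The limit of the filter given above holds for both counts of female-biased genes here.

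**Figure D5:**
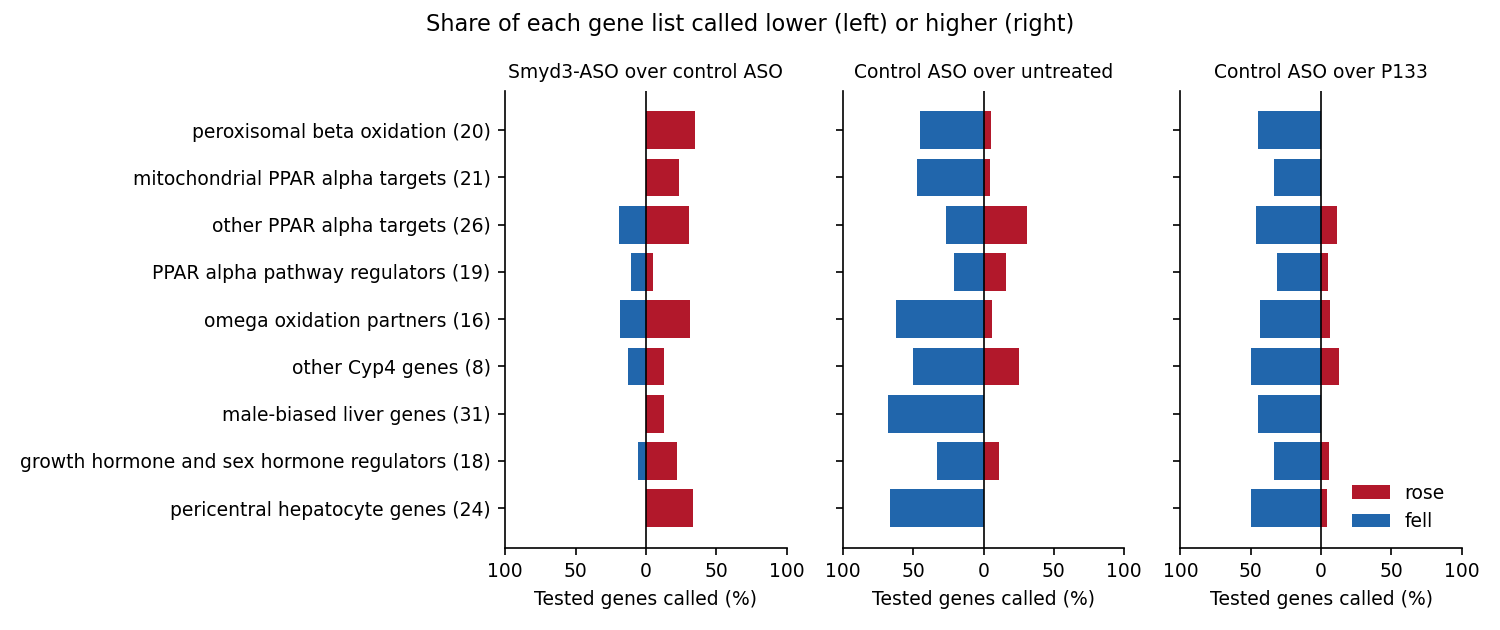
Share of the tested genes of each list (number tested in brackets) that was called higher (red, to the right) or lower (blue, to the left) in 3 comparisons, in percent. In Smyd3-ASO over control ASO, 7 of 20 peroxisomal genes were called higher and 0 lower, and in control ASO over untreated 21 of 31 male-biased genes were called lower and 0 higher.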

How the data were processed

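Liver RNA of 21 mice was sequenced from the 3' end. Per the submitters' processing notes the reads were aligned with HISAT2 2.1.0 to mm10 and DESeq was used, and the counting rule and annotation are not given in the sources used here. The authors deposited raw counts per gene, and a normalized table, treated as a score, whose values are within 0.51 of the raw count divided by a size factor in 100.0% of cases. Libraries of one mouse were summed. Genes were named from GENCODE vM21, and all 55413 IDs matched. Genes passing filterByExpr (15297) were tested with edgeR 4.0.16 (TMM factors, robust quasi-likelihood test), each comparison on its own groups, with Benjamini-Hochberg adjustment. Code was tested on simulated data. Alternatives were library totals, DESeq2 size factors, the DESeq2 1.42.0 test, limma 3.58.1 voom, no filter, one fit of all groups, the deposited score with limma (log2 with 1 added), leaving out each mouse and a replicate block.

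The members and gene lists were chosen with earlier results of these data known. Named were the members, Smyd3, up to 3 called genes of smallest adjusted p per list, and the 3 genes nearest each member in pattern. Genes given beside these as markers or clock genes (Cfd, Adipoq, Lep, Slc34a1, Arntl, Dbp, Nr1d1, Xist, Ddx3y) were chosen after their values were seen. Some items that the rule names are not reported here. No pair of mice of a group had counts alike within sampling noise. The number of counts limits precision most for Cyp4a31 and Cyp4a32. Of the members, only Cyp4a32 had a promoter in the RefSeq table, and protein sequences were not used here.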

Additional observations from a re-analysis of the deposited data

Results flagged for a closer look

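Within each group and member, the gap of the highest or lowest mouse to its neighbour was set against the group's range. In all, 6 of 24 groups had a mouse that stood apart on the CPM scale. The limits give about 1 in 20 by chance for normal values, which skewed CPM values need not follow, and the members share mice. The count is therefore a description and cannot be set against chance. Of these 3 were untreated mouse 1, with 206.5 CPM of Cyp4a10 (next 64.7), 9.88 CPM of Cyp4a31 (next 3.08) and 6.34 CPM of Cyp4a32 (next 2.90). Control-ASO mouse 2 had 17.9 CPM of Cyp4a10 (next 10.3), and control-ASO mouse 3 had 51.0 CPM of Cyp4a12b (next 14.4). P133 mouse 4 was the low one for Cyp4a12b, at 120.7 CPM (next 144).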

How the results depend on the processing

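The 36 results of members gave 684 alternatives, of which 625 kept direction and call, 23 lost a call, 11 gained one and 25 turned direction, none of these a called value. In Smyd3-ASO over control ASO the rises of Cyp4a10, Cyp4a12b and Cyp4a14 held throughout, at log2 1.82 to 2.44, 2.35 to 3.19 and 1.69 to 2.66 (adjusted p up to 0.0292, 0.0113 and 0.0442). Library totals shifted the median of all genes by 0.96 in Smyd3-ASO over untreated, by 0.90 in control ASO over untreated, where 10723 genes were then called (10036 higher and 687 lower) in place of 7018, and by 0.59 in P133 over untreated (7292 in place of 4839, with 6471 higher and 821 lower). Differences that turned were uncalled. With library totals they were 0.27 for Cyp4a10 and 0.19 for Cyp4a32 in Smyd3-ASO over untreated, 0.054 for Cyp4a32 in P133 over untreated and 0.13 for Cyp4a32 in Smyd3-ASO over P133. With voom they were -0.52 for Cyp4a31 and -0.067 for Cyp4a32 in control ASO over untreated and 0.26 for Cyp4a10 in Smyd3-ASO over untreated, and with the deposited score -0.10, -0.0505 and 0.33 for the same 3. With control-ASO mice 1 and 2 left out, an alternative added after seeing the data, Cyp4a32 had 0.024, -0.66 and -0.16 in Smyd3-ASO over control ASO, control ASO over untreated and control ASO over P133. Leaving out single mice gave -0.12 to 0.83 for Cyp4a31 and -0.34 to 0.53 for Cyp4a32 in control ASO over untreated, -0.85 to 0.76 for Cyp4a10 in Smyd3-ASO over untreated, and -0.036 to 0.42 for Cyp4a31 in Smyd3-ASO over P133. The Cyp4a12b call in Smyd3-ASO over untreated was lost with library totals, voom and the score (adjusted p = 0.0734, 0.0914 and 0.142).

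Leaving out single mice gave 2519 to 4282 genes called in Smyd3-ASO over P133 (3794 with all mice), the lowest without P133 mouse 2. It gave 0 to 32 ratio tests called (30 with all mice). Ratio tests called were 13 with 0.1 CPM added and 0 with the replicate block, where the few sign flips allow no test to pass. Replicate numbers did not pair the mice, as mice of 1 number in different groups did not deviate together (r from -0.171 to 0.142). With the replicate block the genes called in control ASO over P133 were 2543 in place of 4131, Cyp4a10 had 0.21 in Smyd3-ASO over untreated, and the calls of Cyp4a10 in control ASO over untreated and Cyp4a12b in Smyd3-ASO over untreated were lost (adjusted p = 0.326 and 0.179). The causes were not tested. Depth limits Cyp4a31 and Cyp4a32, with as few as 1 and 10 counts per mouse.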
